A study of Pongo abelii with 8 samples.

Results

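The 40 genes described here encode proteins that bring a cell into mitosis, build its spindle, hold the cell back until its chromosomes are attached, and then part the chromosomes and the daughter cells. They were taken as the members of a fixed list of gene symbols, at every probe set whose annotation gives exactly that 1 symbol. All 40 members were on the array, at 64 of its 22277 probe sets, and for counts each gene was represented by its probe set with the highest mean over the 8 arrays, as were all 11963 genes with a symbol of their own. The cells came from 2 healthy Sumatran orangutans, the female KB10460, aged 43 years, and the male KB10973, aged 29 years. Each donor gave 1 culture of dermal fibroblasts and 3 colonies of induced pluripotent stem cells (iPSCs), which makes 2 fibroblast arrays and 6 iPSC arrays. Both fibroblast cultures are untransduced primary cells from skin of the upper limb, while every iPSC colony was made with retroviral vectors for human OCT4, SOX2, c-MYC and KLF4 and was expanded on inactivated mouse embryonic fibroblasts. Colonies of a donor are separate picks from its transduced cells, not separate animals, so p-values measure the spread between cultures and colonies of 2 animals.

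Entry into mitosis is driven by cyclin-dependent kinase 1 (CDK1) bound to cyclins A and B, and the CDC25 phosphatases switch this kinase on. Kinetochores, the protein plates on the centromeres, catch spindle microtubules, and as long as some are unattached the spindle assembly checkpoint (the MAD2, BUB and TTK proteins) restrains CDC20, the activator of the anaphase-promoting complex. Once the checkpoint is satisfied, this ubiquitin ligase has securin and cyclin B destroyed, and the chromosomes part. Most genes of this set are transcribed late in the cell cycle, so that in a mixed culture their RNA is known to follow the share of dividing cells. The series' text has both cell types grown to confluence in a serum replacement medium before RNA was taken, whereas the growth protocol of the samples gives the fibroblasts a medium with fetal bovine serum. The methods of the study also give the skin fibroblasts a medium with fetal bovine serum for their maintenance. Which medium the fibroblasts had at harvest is not settled, and neither density nor the share of dividing cells was recorded in the values used here, so cell type and growth state cannot be told apart. In RNA of a whole culture, more expressing cells and more RNA per cell cannot be told apart.

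The values are log2 RMA signals from a human array, and the array medians over all probe sets lay between 3.74 and 3.82. Probe sets near this level hold mostly background, which understates folds, and signals of different probe sets do not rank genes by abundance. Of 8 fibroblast markers, 7 were lower in the iPSCs and THY1 was higher, and all 4 measured pluripotency markers were higher. Keratinocyte markers stayed between 2.99 and 3.51 on every array, and the smooth muscle markers ACTA2 and MYH11 between 4.19 and 4.79. CD14 (7.99 in the KB10460 fibroblasts and 5.42 in the KB10973 ones) and PECAM1 (8.10 and 6.65) were above background in the fibroblasts, while the leukocyte and endothelial markers PTPRC (3.33 and 3.26) and CDH5 (3.10 in both) were not. Of the markers of more mature lineages, neural TUBB3 (log2 difference 2.04), 1 of 2 endoderm markers (AFP 2.08, with ALB -0.07 not called) and 1 of 3 melanocyte markers (PMEL 1.74, with MLANA 0.03 and TYR 0.15 not called) were higher in the colonies, and their part in the results was not tested. A probe set or gene is called when limma's two-sided test gave a change over 1.5-fold and a p under 0.05 after Benjamini-Hochberg adjustment over all probe sets.

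Nearly the whole mitotic set had a higher signal in the iPSC colonies. Of the 40 members, 37 rose, none fell, and CDC25B, CDC25C and KIF14 were not called. Among all 11963 genes, 15.2% were called higher and 11.5% lower. The median log2 difference of the members was 2.16, against -0.00 for all genes, and the members ranged from 0.13 for CDC25B to 5.55 for DLGAP5. A rise over 4-fold was found for 21 members and for 2.80% of all genes. In 38 members even the lowest colony lay above both fibroblast arrays, which held for 23.6% of all genes. The distance from the lowest colony to the higher fibroblast array was over 1 log2 unit in 23 members, a count for which the share of all genes was not taken. Without the KB10460 fibroblast array 36 members were called, ZWINT being lost (log2 difference 0.63, limma adjusted p = 0.063), and the median difference was 1.76. Without the KB10973 fibroblast array 37 were called and the median was 2.53. Either fit leaves 1 fibroblast array, which is then assumed to vary like the colonies.

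**Figure D1:**
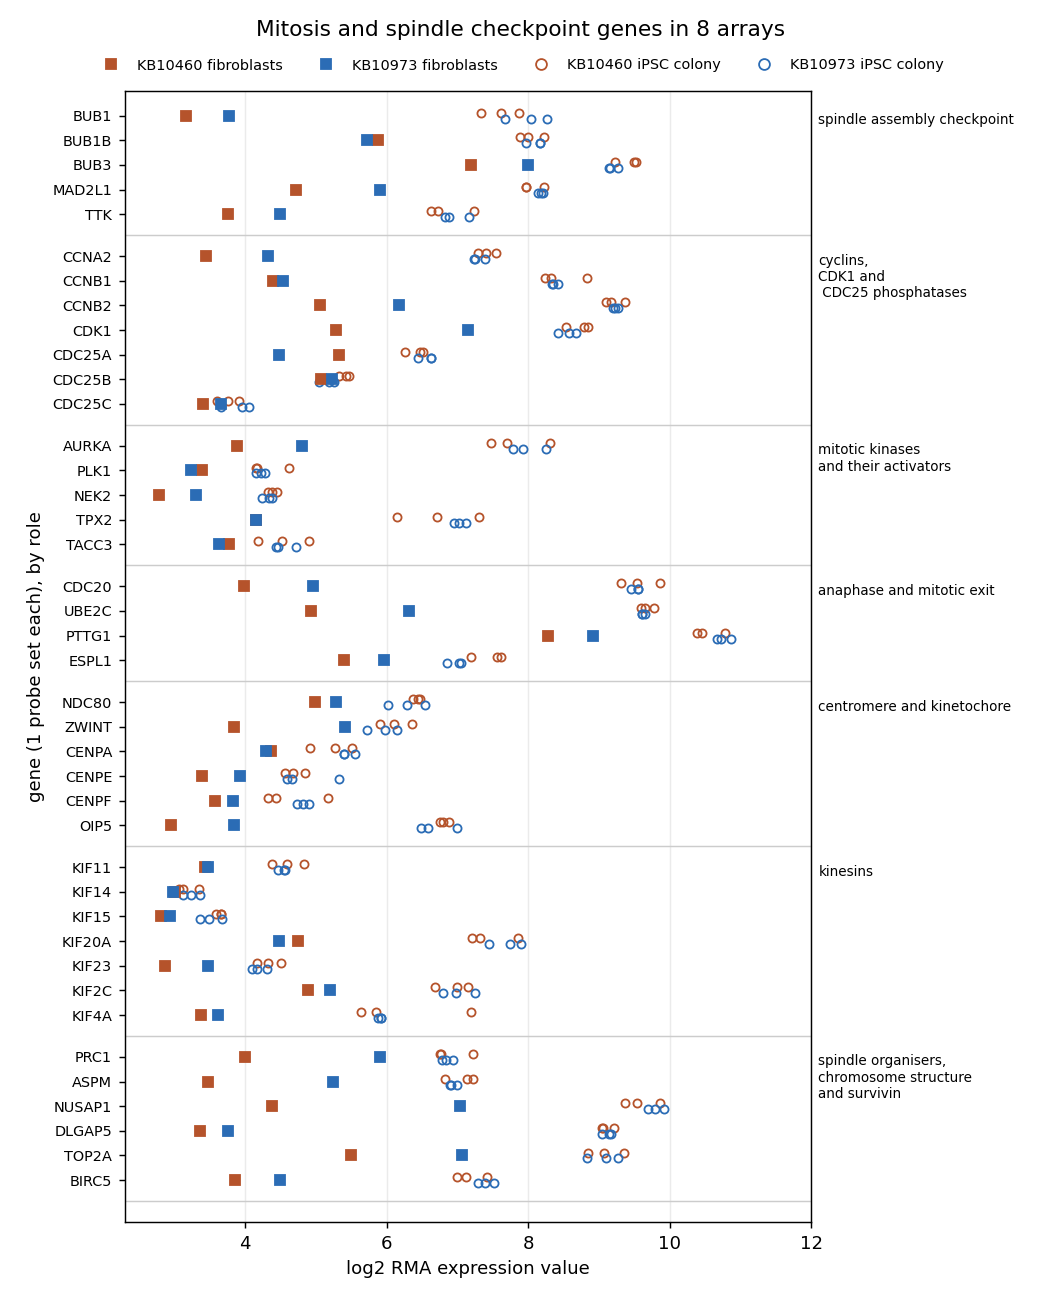
Log2 RMA expression values (horizontal axis) of the 40 members (vertical axis, grouped by role), with a filled square for each fibroblast culture and an open circle for each colony, in 1 colour per donor. Circles lie to the right of both squares in 38 members, and overlap with them for CDC25B and CDC25C; in genes such as NUSAP1, PRC1 and CDK1 the squares of the donors lie far apart.

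The 5 genes of the spindle assembly checkpoint all rose, with a median log2 difference of 2.79. BUB1, a kinase that recruits other checkpoint proteins to the kinetochore, had log2 values of 3.17 in the KB10460 fibroblasts and 3.77 in the KB10973 fibroblasts. In the colonies BUB1 ran from 7.33 through a median of 7.77 to 8.26, a rise of 4.33 (standard error 0.24, limma adjusted p = 1.7e-06). Both fibroblast values were near the array median, and all colonies lay over 3 log2 units above them. BUB1B, which encodes BUBR1, a part of the complex that inhibits CDC20, was well above that level in both cell types. Its fibroblast values were 5.88 and 5.72, in the same order of donors, and its colonies lay between 7.88 and 8.23 with a median of 8.08 (log2 difference 2.27, standard error 0.11). MAD2L1, which encodes the MAD2 protein that binds CDC20 directly, was at 4.72 in the KB10460 and at 5.91 in the KB10973 fibroblasts. Its 6 colonies were close together, from 7.97 through 8.16 to 8.23, and its difference was 2.80 (standard error 0.25). The checkpoint kinase TTK, also called MPS1, rose by 2.79 on the log2 scale. BUB3, a propeller protein that carries BUB1 and BUBR1 to the kinetochore, had fibroblast values of 7.19 and 7.99 and colonies from 9.14 to 9.52 (difference 1.71, standard error 0.20).

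Cyclins and CDK1 rose, while their activating phosphatases were divided. CCNB1, which encodes cyclin B1, was at 4.39 and 4.54 in the KB10460 and KB10973 fibroblasts and at 8.24 to 8.83 in the colonies, with a median of 8.34 (log2 difference 3.95, standard error 0.15, limma adjusted p = 1.2e-07). The fibroblast cultures were alike in this gene and the colonies lay far above both. CCNB2, for cyclin B2, rose by 3.60 and CCNA2, for cyclin A2, by 3.46 on the log2 scale. In CCNB2 the fibroblasts stood at 5.06 and 6.17. CDK1 had values of 5.28 in the KB10460 and 7.16 in the KB10973 fibroblasts, and of 8.42 to 8.84 in the colonies, with a median of 8.63. Its difference of 2.42 (standard error 0.38, limma adjusted p = 0.0011) thus averages fibroblast cultures that lay 1.88 apart, and the call ended with colonies averaged within donor (limma adjusted p = 0.091). CDC25A, which acts from the start of DNA replication onward, rose by 1.59 (standard error 0.19), and here the KB10460 fibroblasts had the higher value, 5.32 against 4.48. CDC25B, which triggers the first activation of CDK1, was at 5.07 and 5.23 in the fibroblasts and at 5.04 to 5.46 in the colonies. These ranges overlap, and its difference of 0.13 (standard error 0.12, limma adjusted p = 0.49) was within the spread of the arrays. CDC25C, which acts on CDK1 at mitotic entry, was low on all 8 arrays, between 3.41 and 4.05, and its difference of 0.29 (standard error 0.14, limma adjusted p = 0.15) was not called.

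All 5 mitotic kinases and kinase activators rose, some of them from and to low signals. AURKA, which encodes the centrosomal Aurora A kinase, had 3.89 and 4.80 in the KB10460 and KB10973 fibroblasts and 7.48 to 8.30 in the colonies, with a median of 7.86 (log2 difference 3.56, standard error 0.27, limma adjusted p = 1.3e-05). The colonies lay over 2 log2 units above both cultures. TPX2, the microtubule protein that activates Aurora A on the spindle, was at 4.15 and 4.16 in the fibroblasts. Its colonies spread from 6.15 in KB10460 colony 3 to 7.31 in KB10460 colony 1, with a median of 6.99, and its difference was 2.73 (standard error 0.26). The centrosomal kinase NEK2 rose by 1.31, PLK1 by 0.96 and TACC3, a partner of Aurora A at spindle microtubules, by 0.84 on the log2 scale. PLK1, the Polo-like kinase that works from mitotic entry to cytokinesis, reached only 4.62 on its highest array. The calls of PLK1 and TACC3 need the 1.5-fold threshold, since neither was over 2-fold.

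The genes of anaphase and mitotic exit had a median log2 difference of 3.04, and all 4 rose. CDC20, the activator on which the checkpoint acts, was at 3.98 in the KB10460 and 4.96 in the KB10973 fibroblasts and at 9.31 to 9.86 in the colonies, with a median of 9.54. This is a log2 difference of 5.07 (standard error 0.23, limma adjusted p = 4.2e-07), or 33.6-fold in the measured signal. UBE2C, the ubiquitin-conjugating enzyme that works with the anaphase-promoting complex, had fibroblast values of 4.93 and 6.32. Its colonies lay within 0.19 of each other, from 9.60 to 9.79, and its difference was 4.02 (standard error 0.28). PTTG1, or securin, the inhibitor of separase, had a high signal in the fibroblasts too, 8.28 and 8.91, and reached 10.39 to 10.86 in the colonies (difference 2.05, standard error 0.18). ESPL1, or separase, the protease that cuts cohesin, rose by 1.53 (standard error 0.23).

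All 6 genes of the centromere and kinetochore rose, with a median log2 difference of 1.17. OIP5, a subunit of the MIS18 complex that prepares centromeres for new CENP-A, had the values 2.95 and 3.84 in the KB10460 and KB10973 fibroblasts. Its colonies ran from 6.49 through 6.78 to 6.998, a rise of 3.35 (standard error 0.22, limma adjusted p = 4.2e-06). For CENPA itself, the histone H3 variant of the centromere, the rise was 1.01 (standard error 0.16), from 4.37 and 4.30 to between 4.91 and 5.56. NDC80, which binds the microtubule at the kinetochore, rose by 1.22, the motor CENPE by 1.12 and CENPF, a large protein of the outer kinetochore, by 1.03 on the log2 scale. CENPE and CENPF had a mean under 5 in both cell types. ZWINT, which ties the ZW10 complex to the kinetochore, was at 3.85 in the KB10460 and 5.41 in the KB10973 fibroblasts, and at 5.72 to 6.36 in the colonies. The KB10973 value came within 0.31 of the lowest colony, and the difference of 1.41 (standard error 0.34, limma adjusted p = 0.011) had the largest adjusted p of the called members. With colonies averaged within donor it was not called (limma adjusted p = 0.20).

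Of the 7 kinesins, 6 rose and KIF14 was not called. KIF20A, a motor of the central spindle needed for cytokinesis, was at 4.75 and 4.48 in the KB10460 and KB10973 fibroblasts and at 7.21 to 7.90 in the colonies, with a median of 7.60 (log2 difference 2.96, standard error 0.20, limma adjusted p = 5.0e-06). KIF4A, a motor that shapes chromosomes and the central spindle, had fibroblast values of 3.38 and 3.62. Among the colonies KIF4A was between 5.63 and 5.92 in 5 of them and at 7.20 in KB10460 colony 1, and its difference was 2.56 (standard error 0.35). KIF2C, or MCAK, which takes microtubules apart at centromeres, rose by 1.93 (standard error 0.16). The other called motors had low signals. KIF11, or EG5, the motor that pushes the spindle poles apart, went from 3.44 and 3.48 to between 4.38 and 4.83 (difference 1.11, standard error 0.11). KIF23, a subunit of centralspindlin, rose by 1.09 and KIF15, which can share the work of KIF11, by 0.69 on the log2 scale. The call of KIF23 ended with colonies averaged within donor (limma adjusted p = 0.053). KIF14, a motor of the midbody, was at 3.01 and 2.98 in the fibroblasts and at 3.06 to 3.36 in the colonies, and its difference of 0.21 (standard error 0.10, limma adjusted p = 0.16) was not called although the arrays did not overlap.

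The spindle organisers, TOP2A and BIRC5 all rose. DLGAP5, or HURP, which stabilizes the fibres between kinetochores and poles, had 3.37 and 3.76 in the KB10460 and KB10973 fibroblasts and 9.05 to 9.21 in the colonies, with a median of 9.10 (log2 difference 5.55, standard error 0.11, limma adjusted p = 1.7e-09). The colonies agreed within 0.17 and stood over 5 log2 units above both cultures. NUSAP1, a microtubule bundler near chromosomes, was at 4.38 in the KB10460 fibroblasts, 7.03 in the KB10973 fibroblasts and 9.37 to 9.91 in the colonies (difference 3.99, standard error 0.53). PRC1, which crosslinks the antiparallel microtubules of the central spindle, was at 3.995, 5.91 and 6.76 to 7.22 in the same order (difference 1.93, standard error 0.39). ASPM, a protein of the spindle poles known from inherited microcephaly, was at 3.48, 5.25 and 6.82 to 7.22 (difference 2.63, standard error 0.36). In these 3 genes the KB10973 fibroblasts lay between the KB10460 fibroblasts and the colonies, and with colonies averaged within donor their calls ended (limma adjusted p = 0.064 for NUSAP1, 0.15 for PRC1 and 0.067 for ASPM). TOP2A, the topoisomerase that untangles sister chromatids, rose by 2.80, and BIRC5, or survivin, the targeting subunit of the chromosomal passenger complex, by 3.11 on the log2 scale.

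Most further probe sets of the members went the same way. Of the 64 probe sets, 51 were called higher, 13 were not called and none was called lower, against 12.2% of all probe sets called higher. The 14 members with several probe sets had 24 others, of which 14 were called higher. The 10 that were not called belong to 6 genes, and their highest value on any array was 5.40. For BUB1 these were 4 probe sets, all between 2.79 and 3.78 on every array, and for AURKA it was a probe set between 2.87 and 3.35. Called probe sets of a gene could also differ in the size of the rise. For BIRC5 the others gave log2 differences of 0.77 and 0.97, beside 3.11 for the one used for counts. A probe set annotated to both CENPA and SLC35F6, which is not counted, had 5.15 and 5.05 in the fibroblasts and a log2 difference of 1.95.

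The 2 fibroblast cultures were not at the same level in these genes. With 1 array for each culture there is no test, and the differences are given as values. In 33 members the KB10973 fibroblasts had the higher value, as in 49.4% of all genes, and in 19 they did so by more than 1.5-fold. CDC25A was the only member that was over 1.5-fold higher in the KB10460 fibroblasts. Among all genes, 7.51% were over 1.5-fold higher in the KB10973 culture and 5.31% in the KB10460 culture. Among the genes called higher in iPSCs, a choice that uses the same fibroblast arrays, 27% were over 1.5-fold higher in the KB10973 culture. The median log2 difference of the members, KB10973 minus KB10460, was 0.55, against -0.00 for all genes and 0.27 for the genes called higher in iPSCs. Over the mean of all probe sets of a gene the median was 0.31 and 16 members were over 1.5-fold higher in KB10973.

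The size of this difference varied between members. It was 2.65 for NUSAP1, 1.91 for PRC1, 1.88 for CDK1, 1.77 for ASPM, 1.57 for TOP2A and 1.56 for ZWINT on the log2 scale. Among the spindle organisers, TOP2A and BIRC5, 5 of 6 members were over 1.5-fold higher in KB10973 and the exception was DLGAP5 (0.40). Of the 7 kinesins only KIF23 (0.62) was past that fold, and of the 5 kinases and activators only AURKA (0.91). Several other members were nearly level between the cultures, with 0.14 for CCNB1, 0.01 for TPX2, -0.15 for PLK1, -0.16 for BUB1B and -0.26 for KIF20A. The other 2 probe sets of CDK1 gave 2.14 and 1.48. The other probe set of NUSAP1, however, gave 0.58, and for ESPL1 the probe sets pointed in opposite directions (0.58 and -1.02), as did the called ones of CENPF (0.25 and -0.60). The second probe set of TOP2A gave 0.80. The second probe set of CDC25A gave -0.02 where the one used for counts gave -0.85. The cultures also differed in CD14 and PECAM1, which were higher in KB10460 by 2.57 and 1.45 log2 units (KB10973 minus KB10460, -2.57 and -1.45), while the 8 fibroblast markers went both ways, from -1.12 for PDGFRB and -0.18 for LUM to 1.26 for COL3A1 and 1.60 for COL1A1, with a median of 0.24. The part of cell mixture in the difference was not tested, and donor, sex, age and culture cannot be told apart.

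**Figure D2:**
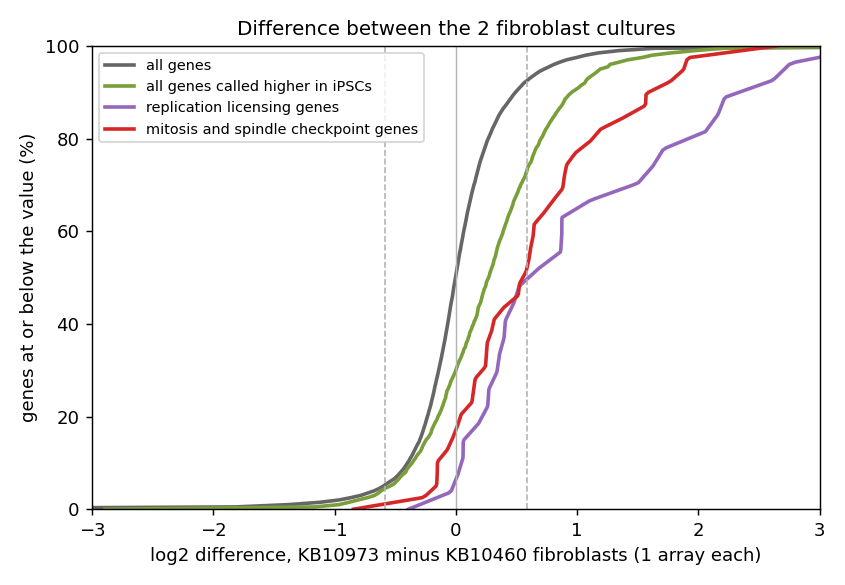
Cumulative share of genes (vertical axis, %) by the log2 difference between the KB10973 and the KB10460 fibroblasts (horizontal axis, 1 array each), with dashed lines at a 1.5-fold difference either way. The curve of the 40 members lies to the right of that of all genes and of the genes called higher in iPSCs, with medians of 0.55, -0.00 and 0.27, and the curve of the replication licensing genes (median 0.60) crosses it; GINS1 of that list, at 3.47, is beyond the end of the axis.

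Within each donor, the rise from its own fibroblasts to its colonies is given next. The difference of the rise between donors is by construction the donor difference in iPSCs minus that in fibroblasts, so it carries the fibroblast difference above a second time and is no further evidence of it. The median rise of the members was 2.43 log2 units in KB10460 and 1.82 in KB10973. NUSAP1 rose by 5.21 in KB10460 and by 2.77 in KB10973, a difference of -2.44, beside the 2.65 between its fibroblast arrays and 0.21 between the iPSCs of the donors. For CDK1 the rises were 3.45 and 1.40 (difference -2.05), and for UBE2C 4.74 and 3.30 (-1.44). For ASPM the difference was -1.90, for PRC1 -1.97, for ZWINT -1.74 and for TOP2A -1.60. CCNB2 (-1.09), MAD2L1 (-1.07), BUB3 (-1.02) and CCNA2 (-1.01) followed, and CDC25A, with 1.09 and 2.09, had a difference of 1.00 the other way. These are the 12 members past the threshold in the limma fit over 4 groups, 11 with a smaller rise in KB10973, against 2.02% of all genes, and CDC25A with a larger one, against 1.4% of all genes. The fit has 1 fibroblast array per donor and takes it to vary like a colony, an assumption that could not be checked, so the count describes these arrays and not the donors. With a KB10973 colony left out the count was 6 (colony 1), 5 (colony 2) and 6 (colony 3), and with a KB10460 colony left out it was 14, 8 and 9 in the same order. It was 6 with KB10973 colonies 1 and 2 averaged. The shares of all genes are for the main fit alone, and none was taken for these alternatives.

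**Figure D3:**
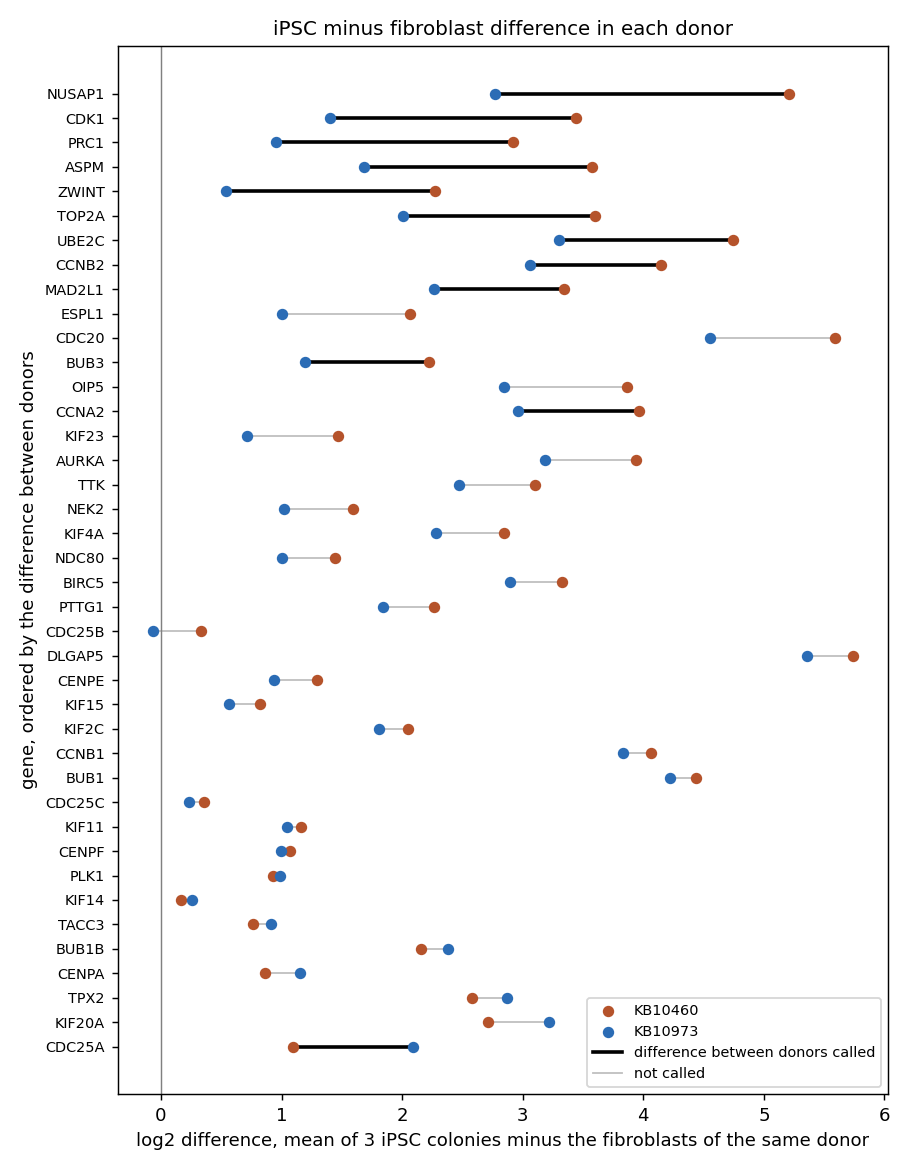
Log2 difference between the mean of the 3 iPSC colonies and the fibroblasts of the same donor (horizontal axis) for each member (vertical axis, ordered by the difference between the donors), with a point for each donor and a black line for the 12 members past the threshold in the limma fit, which has 1 fibroblast array per donor. The KB10460 point lies to the right in 32 members, and the black lines at the top run from 2.77 to 5.21 for NUSAP1 and from 1.40 to 3.45 for CDK1.

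Between the iPSCs of the donors, 3 colonies against 3, no member was called by limma. An unadjusted p under 0.05 was found for 2 members, ESPL1 and CDC25B, against 11.8% of all genes, and 0.142% of all genes were called. The differences, KB10973 minus KB10460, ran from -0.48 for ESPL1 to 0.39 for BUB1, and 19 members were higher in KB10973 and 21 in KB10460. ESPL1 was at 7.19, 7.61 and 7.57 in KB10460 colonies 1 to 3 and at 7.05, 7.02 and 6.85 in KB10973 colonies 1 to 3. These values do not overlap, but in the fit of all colonies ESPL1 was not called (limma adjusted p = 0.26). Of the fits with a colony left out, only that without KB10460 colony 1 called it (log2 difference -0.62, limma adjusted p = 0.049). The share of all genes whose colonies do not overlap between the donors was not counted. Its second probe set had a log2 value of 7.06, 7.41 and 7.22 in the KB10460 colonies and of 6.76, 6.81 and 6.82 in the KB10973 colonies, also without overlap.

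Within the colonies the members varied little beside their distance from the fibroblasts. The SD over the 6 colonies had a median of 0.18, against 0.14 for all genes and 0.20 for all genes called higher in iPSCs, and ranged from 0.07 for DLGAP5 to 0.57 for KIF4A. In 38 members the colonies lay within 1 log2 unit, the exceptions being KIF4A and TPX2. The share of all genes with such a range was not counted. KB10460 colony 1 was the highest colony in 21 members. Among all genes that share was 19.9%, and among all genes called higher in iPSCs it was 33.4%. Its members stood at a median of 0.16 above the median of the 6 colonies, and those of the other 5 colonies between -0.06 and 0.04. In KIF4A its excess over the next colony was 1.28 log2 units, while in CCNB1, PLK1, AURKA, PRC1 and TACC3 it was the highest colony by less. MAD2L1 and CENPA were among the 4 members in which colony 1 was the lowest. Without KB10460 colony 1, 37 members were still called higher in iPSCs and the median difference was 2.13.

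**Figure D4:**
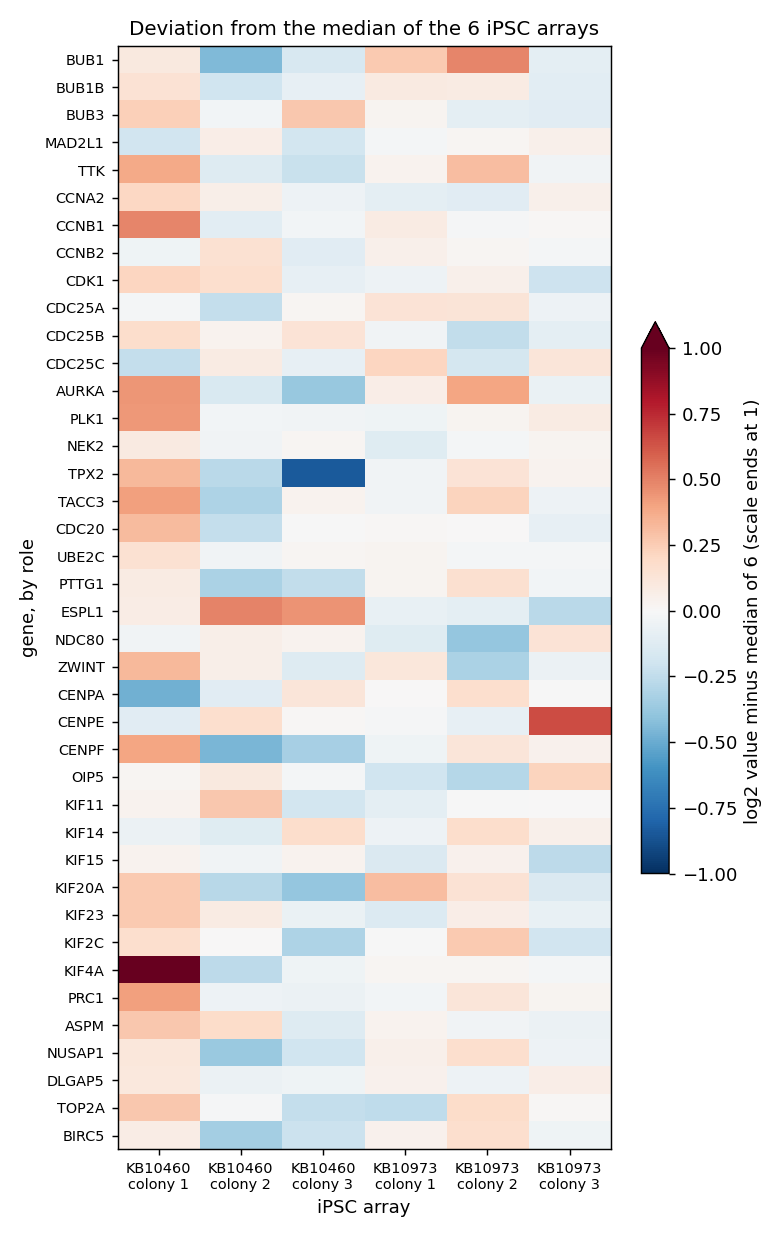
Log2 value of each member (rows, by role) in each iPSC array (columns) minus the median of the 6 arrays, shown as colour on a scale that ends at 1 either way. The column of KB10460 colony 1 is mostly red, with KIF4A beyond the end of the scale, and TPX2 is blue in KB10460 colony 3.

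The other lists hold genes around mitosis and no member, and their counts stand beside 15.2% of all genes called higher and 11.5% called lower. Of 137 listed genes 107 had a probe set of their own, and of these 51 rose, 5 fell and 51 were not called, with a median log2 difference of 0.62. These include a list of other kinesins, several of which are known as transport motors, and without that list 43 of 89 rose and 3 fell, with a median of 0.64, a count made after the values were seen. The condensins, which compact chromosomes, had 7 of 8 genes higher, among them SMC2 (2.04), NCAPD2 (1.79) and NCAPG2 (1.65). Regulators of entry and exit had 10 of 14 higher, among them CKS2 (3.38), a small subunit that binds CDK1, the inhibitory kinase WEE1 (2.84) and GMNN (2.51), or geminin, which blocks replication licensing. Of the other kinetochore and checkpoint genes 10 of 25 rose, with MIS18A (2.62), CENPU (2.57) and SPC25 (2.33) in front. Cohesin genes rose in 5 of 9 cases, among them SMC1A (1.79), SMC3 (1.08) and RAD21 (1.04). Of the chromosomal passenger genes AURKB (2.72), or Aurora B, and CDCA8 (1.78) rose, while INCENP (0.05) was not called. The centrosome and cytokinesis list had 7 of 19 higher, with HMMR (3.86), CEP55 (1.64) and CKAP5 (1.44), and NUMA1 lower (-0.60).

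Of the 11 measured genes of the anaphase-promoting complex, which CDC20 activates, 7 were not called, 2 rose, the regulator FBXO5 (1.62), or EMI1, and the subunit CDC23 (0.98), and 2 subunits fell, ANAPC13 (-1.65) and CDC27 (-0.99). The shares called are 2 of 11 either way, near those of all genes, and the median log2 difference was 0.26. The other kinesins had 8 of 18 genes higher and 2 lower. KIF5C (4.31) and KIF1A (1.92), which are known as transport motors of neurons, were among those that rose, next to the mitotic motor KIFC1 (1.90), and KIF3B (-0.97) and KIF1C (-0.71) fell. For comparison, 27 of 28 genes of replication licensing and replication factors rose, with a median of 1.27, led by RFC4 (3.51), a subunit of the clamp loader, and by MCM5 (3.41) and MCM3 (2.95), subunits of the replicative helicase. In that list 14 of 28 genes were over 1.5-fold higher in the KB10973 than in the KB10460 fibroblasts and none was lower by as much, and the median difference of the cultures was 0.60. Among the other lists together, 27 of 107 were over 1.5-fold higher in the KB10973 fibroblasts and 5 in the KB10460 ones, with a median of 0.12. Of all genes, 7.51% were over 1.5-fold higher in the KB10973 and 5.31% in the KB10460 fibroblasts. Of the genes called higher in iPSCs, 27% were over 1.5-fold higher in the KB10973 fibroblasts.

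**Figure D5:**
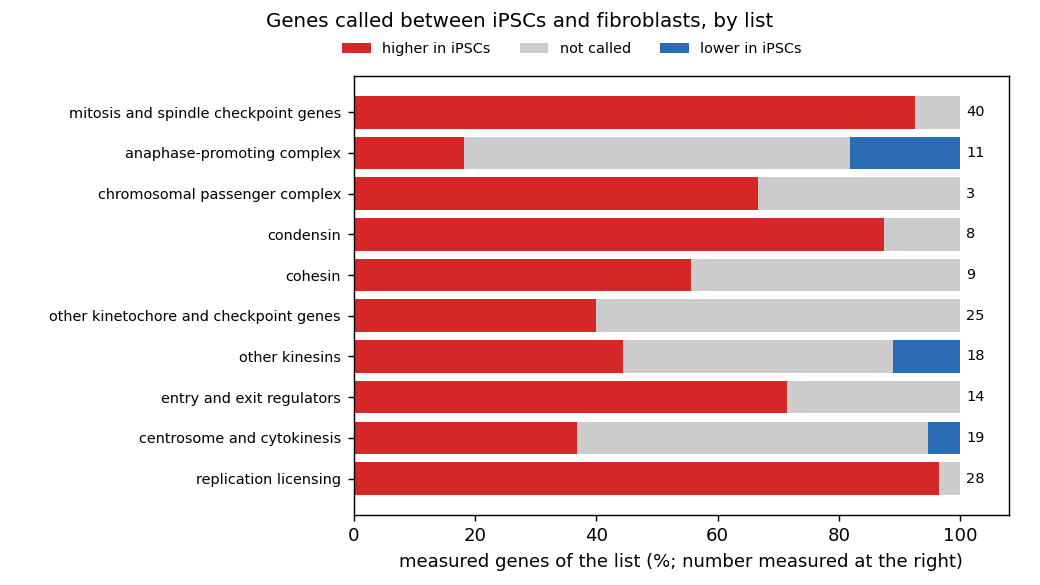
Share of the measured genes of each list (horizontal axis, %) that were called higher in iPSCs, not called or called lower by limma, with the number of measured genes at the right of each bar. The members and the replication licensing genes are almost all red (37 of 40 and 27 of 28), and the anaphase-promoting complex is mostly grey (7 of 11).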

How the data were processed

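Biotin-labelled RNA of 8 cultures was hybridised to Affymetrix human arrays of 1 colour. The authors used WebArray for RMA, and the deposited values are on the log2 scale, at 22277 probe sets. Its version is not given here. RMA makes the distributions of the arrays equal, so a change shared by most transcripts would be removed. Mismatches between orangutan RNA and human probes can lower a signal. All columns had a sample (0 left over). In the platform annotation 19070 probe sets had 1 symbol, 1043 had several and 2164 lacked any.

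From these values limma 3.58.1 in R 4.3.3 (lmFit, eBayes) compared 6 iPSC with 2 fibroblast arrays without a block, the iPSCs of the donors, and the change between donors over 4 groups. Scripts were tested on simulated data. Figures used matplotlib in Python 3.11.15. Members and lists were chosen with earlier results of these data known. All members are accounted for, and of other lists the 3 genes with the largest called change each way are named. INCENP, and the genes at which probe sets disagree, were named after their values were seen. The donor pairs its own fibroblasts and iPSCs, being 1 animal, and across probe sets the KB10973 minus KB10460 difference in fibroblasts had a correlation of 0.02 with that in iPSCs. Promoter motifs were not counted, and the SNP arrays and staining of the study were not analysed here.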

Additional observations from a re-analysis of the deposited data

Results flagged for a closer look

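In 5 members 1 colony lay apart from the other 5 of the 6 iPSC arrays, by a gap above Dixon's critical value, which chance passes in about 1 of 20 such groups. The gap was 0.819 of the range in KIF4A, 0.741 in PLK1, 0.683 in CCNB1 and 0.689 in UBE2C, each with KB10460 colony 1 as the highest, and 0.631 in CENPE with KB10973 colony 3 as the highest (5.32, against 4.56 to 4.84 in the others). In UBE2C and PLK1 the whole range was 0.19 and 0.47 log2 units. The share of all genes with such a gap was not counted. KB10460 colony 1 was the highest colony in 33.4% of all genes called higher in iPSCs.

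In 12 members the rise from fibroblasts to iPSCs was past the threshold for a difference between the donors in the limma fit over 4 groups. The rise was smaller in KB10973 in 11 of them, against 2.02% of all genes, and larger in 1, against 1.4% of all genes. Each donor has 1 fibroblast array, and the value is for the most part the difference between those arrays turned round, so it is no separate result. The difference of the rise, KB10973 minus KB10460 on the log2 scale, was -2.44 for NUSAP1, -2.05 for CDK1, -1.97 for PRC1, -1.90 for ASPM, -1.74 for ZWINT, -1.60 for TOP2A, -1.44 for UBE2C, -1.09 for CCNB2, -1.07 for MAD2L1, -1.02 for BUB3, -1.01 for CCNA2 and 1.00 for CDC25A.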

How the results depend on the processing

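The number of members called higher in iPSCs was 29 to 37 under all alternatives: 29 of the 30 left when probe sets with a mean under 5 in both cell types were removed, 31 with colonies averaged within donor, 34 at a fold over 2, 35 with probe sets without _s_ or _x_ in the name preferred, 36 at an adjusted p under 0.01, and 36 to 37 with an array left out. With the donor as a fixed or random replicate block it was 37 and no call changed. Leaving out low probe sets keeps a member that is low in fibroblasts only if it is high in iPSCs. The count and the median under that filter are therefore partly set by the filter. The 15.2% of all genes called higher is for the main fit alone, and no such share is given for the alternatives. The median log2 difference was 2.76 without the low probe sets, 1.93 with the other choice of probe sets, and 1.76 to 2.53 with an array left out. With that choice of probe sets AURKA had a log2 difference of -0.022 (limma adjusted p = 0.93) and CENPF one of 0.11 (0.34), both at signals near background. Colonies averaged within donor ended the calls of CDK1, ZWINT, KIF23, PRC1, ASPM and NUSAP1 (limma adjusted p between 0.053 and 0.20). Between the iPSCs of the donors 0 members were called under every alternative, the colony number as a replicate block included, apart from 0 to 1 with a colony left out. Colony numbers share only a number (correlations of the deviations between -0.05 and 0.06). The number of members past the threshold for a difference of the rise between donors rests on 1 fibroblast array each. That number was 6 with KB10973 colonies 1 and 2 averaged and 5 to 14 with a colony left out. No share of all genes was taken for these fits. The median difference of the fibroblast cultures was 0.31 over the mean of a gene's probe sets. The causes were not tested. Signals near background and 1 fibroblast culture per donor limit all of these.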
